A study of Homo sapiens with 15 samples.

Results

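The genes of ligand-gated neurotransmitter receptor channels were followed across an EWS/FLI knockdown and rescue experiment in A673 cells. A gene was taken when its symbol named a subunit of a GABA-A, glycine, AMPA, kainate, NMDA, delta glutamate, nicotinic acetylcholine, serotonin 5-HT3 or P2X receptor. That rule used names alone, and it found 69 genes among the 57820 genes with counts, of which 55538 identifiers were matched to a symbol. By receptor they were 18 GABA-A, 16 nicotinic, 7 NMDA, 7 P2X, 5 kainate, 5 glycine, 5 5-HT3, 4 AMPA and 2 delta glutamate subunits. One further gene that the rule names, GABRQ, was not analysed here.

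A673 is an Ewing sarcoma cell line, in which a fusion of EWSR1 and FLI1 makes the transcription factor EWS/FLI. RNA-seq covered 15 libraries, 3 for each of 5 conditions, and all cells carried a retroviral shRNA and a second retroviral vector. The control iLuc cells carried a luciferase shRNA with an empty vector, so that endogenous EWS/FLI (endo-EF) was kept. iEF cells received an shRNA against the 3′ UTR of EWS/FLI and an empty vector. The rescued cells received that shRNA together with a cDNA, either wildtype EWS/FLI (WT-EF), Δ22, which lacks the EWS domain, or DAF. In DAF the tyrosines in amino-terminal repeats of the EWS domain are changed to alanine, and other tyrosines of the domain are kept. Cells were infected with shRNA virus at day 1 and with cDNA virus at day 5, and were kept under puromycin (2 μg/mL) and hygromycin B (400 μg/mL) until day 16. A single cell line was used, and the labels number the replicates. The study describes transduction, rescue, selection and harvest as the steps of each replicate, and libraries of the same condition differed by more than counting noise, with a chi-square of 12.9 to 83.2 per gene. P-values measure the spread between these libraries.

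Total counts ran from 28659475 to 41859880 per library. FLI1, which gives its 3′ part to the fusion, was at 48, 47.8 and 52.4 CPM in iLuc libraries, 12.9, 15.5 and 15.3 CPM in iEF libraries, 16, 18 and 18.7 CPM with WT-EF, 24.4, 32.9 and 36.2 CPM with Δ22 and 22.1, 23.6 and 27.3 CPM with DAF, where CPM is the count scaled by library size. Its iLuc libraries were above all others, and the log2 fold change of iLuc over iEF was 1.77 ± 0.10 (adjusted p = 7.93e-09). FLI1 was not called in WT-EF against iEF. The shRNA targets the 3′ UTR, and counts of FLI1 do not separate endogenous transcripts from those of a cDNA. They are thus no measure of how much of a construct was made. The study shows the tagged constructs in these cells by western blot. The summed level of 8 Ewing sarcoma markers lay between 1578 and 2963 CPM. Markers of other cell types were lower, with sums of at most 4.69 CPM for 4 leukocyte, 0.858 CPM for 2 endothelial, 5.79 CPM for 4 glial and 5.75 CPM for 5 skeletal muscle genes, and between 27.1 and 110 CPM for 4 epithelial genes.

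Ligand-gated channels open an ion pore when a transmitter binds, and so turn a chemical signal into a current within the same protein. GABA-A, glycine, nicotinic and 5-HT3 receptors are pentamers of a shared architecture, of which GABA-A and glycine receptors pass chloride and the others cations. AMPA, kainate, NMDA and delta receptors are tetramers of the glutamate receptor family, and P2X receptors are trimers opened by extracellular ATP. Most of these subunits are best known from neurons and muscle. A working channel usually needs a particular set of subunits, so that a single transcript does not make a receptor.

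Promoter windows are shown for GRIK2, GRIA2, GABRA4 and CHRNB2, on which the comparisons below turn, because EWS/FLI is known to bind motifs with a GGAA core and repeats of GGAA. Each window holds 250 bases before and 50 bases after a RefSeq start of GRCh38.p14, from 5′ to 3′ on the strand of the gene, and every GGAA or its reverse complement TTCC is in capitals. GRIK2 encodes the kainate receptor subunit GluK2, and the first of its 2 listed starts gives chr6:101393458-101393757 on the plus strand, with 3 matches. GRIA2 encodes the AMPA receptor subunit GluA2, and the first of its 3 listed starts gives chr4:157219870-157220169 on the plus strand, with 4 matches. GABRA4 encodes the α4 subunit of GABA-A receptors, with its window at chr4:46993532-46993831 on the minus strand, with 4 matches. CHRNB2 encodes the β2 subunit of nicotinic receptors, with its window at chr1:154567528-154567827 on the plus strand, with 7 matches.
GRIK2: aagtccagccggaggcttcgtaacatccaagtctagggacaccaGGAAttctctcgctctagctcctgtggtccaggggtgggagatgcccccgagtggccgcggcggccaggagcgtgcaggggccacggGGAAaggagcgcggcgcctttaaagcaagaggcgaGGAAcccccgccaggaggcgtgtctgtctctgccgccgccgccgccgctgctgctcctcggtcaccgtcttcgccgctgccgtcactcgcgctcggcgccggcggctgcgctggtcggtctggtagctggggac
GRIA2: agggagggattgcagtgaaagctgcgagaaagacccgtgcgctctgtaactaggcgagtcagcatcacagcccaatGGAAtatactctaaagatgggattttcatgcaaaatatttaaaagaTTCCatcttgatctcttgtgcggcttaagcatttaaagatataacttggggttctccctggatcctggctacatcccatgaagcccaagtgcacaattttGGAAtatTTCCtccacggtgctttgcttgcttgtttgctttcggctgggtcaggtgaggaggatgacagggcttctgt
GABRA4: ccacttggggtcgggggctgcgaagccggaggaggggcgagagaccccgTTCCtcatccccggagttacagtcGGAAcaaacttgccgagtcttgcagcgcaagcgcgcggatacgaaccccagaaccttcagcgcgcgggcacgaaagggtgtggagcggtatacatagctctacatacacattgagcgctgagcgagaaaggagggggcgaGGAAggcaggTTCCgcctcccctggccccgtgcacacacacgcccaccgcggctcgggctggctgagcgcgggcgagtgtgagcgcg
CHRNB2: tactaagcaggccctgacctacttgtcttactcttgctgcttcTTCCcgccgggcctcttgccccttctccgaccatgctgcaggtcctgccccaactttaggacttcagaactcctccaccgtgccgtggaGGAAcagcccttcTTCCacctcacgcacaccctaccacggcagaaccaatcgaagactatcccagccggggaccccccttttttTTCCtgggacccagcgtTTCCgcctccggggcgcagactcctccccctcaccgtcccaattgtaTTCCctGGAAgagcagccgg
RefSeq windows were found for 45 of the 69 genes, 62 windows in all since some genes have several starts. GGAA on either strand was present in 60 of the 62 windows, or 96.8%, against 95.5% of all 35116 windows, and the median was 3 matches in both. The repeat GGAAGGAA, which holds GGAA within it, was on either strand in 2 of the 62 windows, or 3.23%, against 3.67% of all windows, and in none of the 4 shown. A match describes the letters of these windows and not a bound site, and sequence outside the windows was not searched.

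Most of the receptor channel genes were near zero. No count was found in any library for 5 of them, GABRA6, GABRG3, GABRP, HTR3D and P2RX3. Another 12 fell under the filter of an average of 1 count per library, among them CHRNA2, CHRNB3, GABRA3, GABRA5, GABRB2, GABRR3, GLRA4, HTR3A, HTR3C and HTR3E, and their highest count in any library was 4. Of the 52 genes tested, 27 averaged under 10 counts per library and 12 averaged at least 50. GRIK2 averaged 3959 counts, P2RX4 550, GLRB 436, CHRNA9 201, CHRNA5 180 and CHRNB1 174, and these were the 6 genes with an average of at least 100. A gene present in a single condition can pass such a filter through that condition, so counts over the 52 genes are descriptions.

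Levels of different genes are compared as CPM per kb of exon. In iLuc cells GRIK2 led with 9.96 ± 0.571 CPM per kb (SD, n = 3), followed by GLRB at 3.72 ± 0.737 and CHRNA5 at 2.38 ± 0.319. CHRNB1 and P2RX4 came next at 1.28 ± 0.215 and 1.27 ± 0.18 CPM per kb, a difference within their spread. In iEF cells the order was GLRB at 4.22 ± 1.14, then CHRNA9 at 1.96 ± 0.341 and P2RX4 at 1.9 ± 0.163, again within their spread, and GRIK2 held the sixth place with 0.765 ± 0.269. In WT-EF cells GRIK2 was first again at 6.46 ± 1.2 CPM per kb and GLRB next at 3.62 ± 0.744. In Δ22 cells GLRB and CHRNA9 could not be ordered, at 3.57 ± 0.736 and 3.57 ± 1.48 CPM per kb. In DAF cells GLRB at 3.76 ± 0.453, GRIK2 at 2.98 ± 1.21 and P2RX4 at 2.85 ± 0.962 lay within 1 SD of each other. On this scale a kainate subunit led in iLuc and WT-EF cells, where EWS/FLI was without mutation. The glycine receptor β subunit was on this scale first or not separable from the first in iEF, Δ22 and DAF cells. That order depends on the exon length used, 26.8 kb for GRIK2 and 3.39 kb for GLRB. These lengths come from the annotation used here, which may differ from the one the authors counted with. In mean CPM without length GRIK2 was above GLRB in Δ22 (29 against 12.1) and DAF cells (80 against 12.8). It was also above GLRB in iEF cells (20.5 against 14.3), where the libraries of the genes overlapped.

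Summed over the 69 genes, the level was 23.5 ± 1.57 CPM per kb in iLuc, 14.4 ± 0.808 in iEF, 19.4 ± 1.7 in WT-EF, 16.6 ± 2.01 in Δ22 and 19.4 ± 3.13 in DAF cells. GRIK2 made up 42.4 ± 2.15% of that sum in iLuc cells and 5.34 ± 2% in iEF cells. Its share was 33.1 ± 3.47% with WT-EF, 6.36 ± 2.03% with Δ22 and 14.9 ± 4.22% with DAF. The size of these shares depends on the exon length used, which is 26.8 kb for GRIK2 in the annotation used here. Without GRIK2 the sums were 13.6 ± 1.27, 13.7 ± 0.927, 13 ± 0.662, 15.5 ± 1.57 and 16.4 ± 1.92 CPM per kb in the same order of conditions, and iLuc and iEF cells then differed by less than 1 SD.

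**Figure D1:**
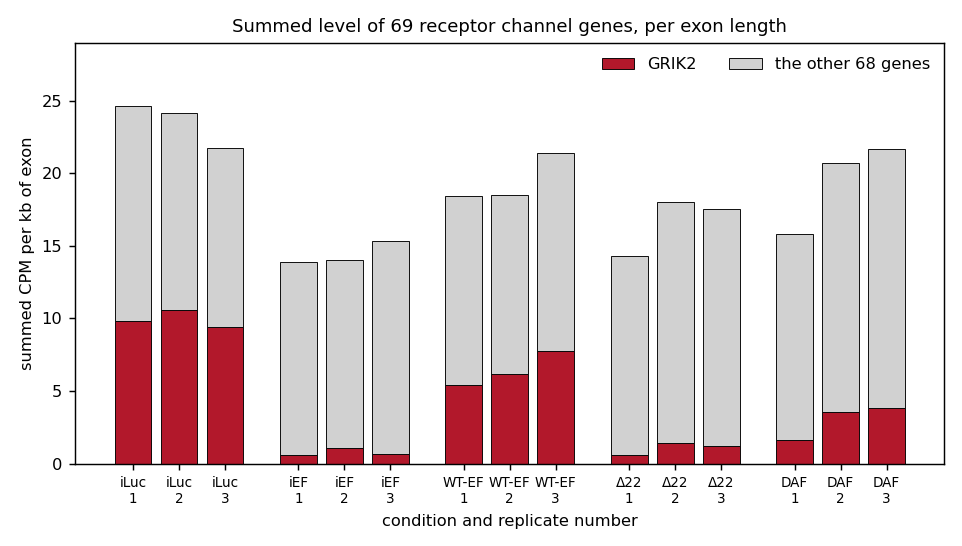
Summed level of the 69 receptor channel genes in each of the 15 libraries, in CPM per kb of exon, split into GRIK2 and the other 68 genes. The GRIK2 part is large in iLuc and WT-EF libraries, smaller in DAF libraries and small in iEF and Δ22 libraries. Its size relative to the other genes depends on the exon lengths used.

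Each condition was compared with iEF, and the same 3 iEF libraries stand in all 4 of these comparisons. edgeR's quasi-likelihood test was used, with Benjamini-Hochberg adjustment over all 28793 genes tested and a cutoff of 0.05, and fold changes are on the log2 scale with their SE. In iLuc against iEF, 24 of the 52 genes were called, against 41.6% of all genes. There were 12 higher with endo-EF (19.5% of all genes) and 12 lower (22.1%). WT-EF against iEF gave 15 called genes (29.9% of all genes), 10 higher (12.9%) and 5 lower (17.0%). Δ22 gave 1 gene higher (0.472%) and 0 lower (0.830%), against 1.30% of all genes in either direction. DAF gave 8 genes higher (5.00%) and 0 lower (6.19%), against 11.2% in either direction. For the genes lower with Δ22, an unadjusted p under 0.05 was found for 1 gene by edgeR and 2 by DESeq2, and for those lower with DAF for 4 and 2, with 0 after adjustment by DESeq2 in both. In either direction the shares of the 52 genes called for iLuc and WT-EF, 46.2% and 28.8%, were near those of all genes. With WT-EF the higher side held more of the members (19.2%) and the lower side fewer (9.62%) than of all genes, a difference that was not tested, and with DAF all 8 called members were on the higher side.

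The median log2 fold change of the 52 genes was 0.22 in iLuc, 0.43 in WT-EF, 0.27 in Δ22 and 0.44 in DAF, each against iEF, where the medians over all genes tested were 0.04, -0.01, 0.01 and 0.00. Of the 52 genes 27 averaged under 10 counts, and a gene low in iEF can pass the filter through another condition. The medians are therefore descriptions, and their distance from those of all genes was not tested. Alternatives left out single libraries or changed the filter, the scaling or the test. In every alternative run, 15 of the 24 calls were kept for iLuc, 6 of 15 for WT-EF, 0 of 1 for Δ22 and 3 of 8 for DAF, and no called gene changed direction.

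**Figure D2:**
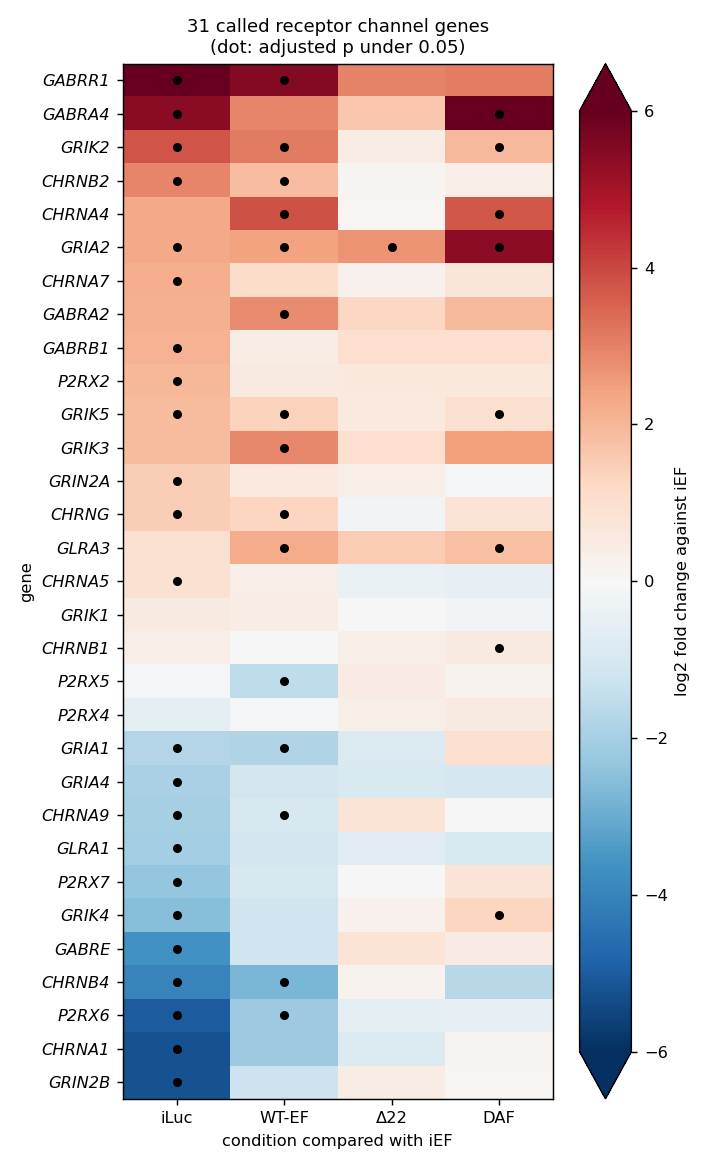
Log2 fold change against iEF, as colour, of 31 of the 32 receptor channel genes called in at least 1 of the 7 comparisons, for iLuc, WT-EF, Δ22 and DAF, with a dot where the adjusted p was under 0.05. The iLuc column holds 23 dots in both directions, the Δ22 column 1, and the 8 dots of DAF all mark higher genes. Colours of genes without counts in a condition (GABRR1 in iEF, CHRNA1 and GRIN2B in iLuc) depend on the prior count and are no bounds.

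The kainate receptors held the largest change in level. GRIK2 (ENSG00000164418, GRCh37 chr6:101410577-102529497) was at 264, 283 and 253 CPM in iLuc libraries, 15.6, 28.8 and 17.1 CPM in iEF libraries, 145, 166 and 208 CPM with WT-EF, 15.6, 38.5 and 33 CPM with Δ22 and 42.7, 95.3 and 102 CPM with DAF. All iLuc libraries were above all WT-EF libraries, these above all DAF libraries, and these in turn above all Δ22 and iEF libraries, which overlapped each other. The change against iEF was 3.76 ± 0.26 (adjusted p = 3.56e-08) for iLuc, 3.11 ± 0.25 (adjusted p = 5.47e-07) for WT-EF and 1.92 ± 0.24 (adjusted p = 0.000177) for DAF by edgeR's quasi-likelihood test. For Δ22 it was 0.46 (95% interval -0.04 to 0.97, adjusted p = 0.424). WT-EF exceeded DAF by 1.19 ± 0.23 (adjusted p = 0.00133), and DAF exceeded Δ22 by 1.46 ± 0.24 (adjusted p = 0.00588). The call of DAF over Δ22 was lost in 2 of 24 alternatives (no replicate block, adjusted p = 0.0627 and without replicate 2 of all conditions, adjusted p = 0.0806). WT-EF against iLuc gave -0.65 (95% interval -1.14 to -0.16, adjusted p = 0.0593).

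GRIK5 encodes GluK5, a subunit that forms channels only together with low-affinity subunits such as GluK2. It was at 4.34, 3.39 and 3.88 CPM in iLuc libraries, 1.05, 1.25 and 0.785 CPM in iEF libraries, 3.27, 2.06 and 2.64 CPM with WT-EF, 1.7, 1.43 and 1.54 CPM with Δ22 and 2.11, 2.06 and 1.84 CPM with DAF. The iEF libraries lay below those of every other condition. GRIK5 rose against iEF by 1.91 ± 0.21 (adjusted p = 3.79e-06) with endo-EF and by 1.36 ± 0.21 (adjusted p = 0.000191) with WT-EF. With DAF it rose by 0.97 ± 0.22 (adjusted p = 0.0094), a call lost in 4 of 24 alternatives, among them without iEF replicate 1 or 3 or DAF replicate 2 (adjusted p = 0.0538 to 0.0566). WT-EF against DAF gave 0.39 (95% interval -0.04 to 0.82, adjusted p = 0.178).

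GRIK4, for the related subunit GluK4, was low and went the other way with endo-EF. It had 2, 2 and 1 counts in iLuc libraries, 9, 8 and 12 in iEF libraries, 3, 9 and 3 with WT-EF, 9, 24 and 6 with Δ22 and 11, 48 and 20 with DAF. All iLuc libraries were below all iEF libraries, and the summed counts over library size were 5.79-fold lower in iLuc cells (95% counting interval 2.21 to 19.1). Such intervals cover counting error only. The fitted change was -2.55 ± 0.57 (adjusted p = 0.00221). With DAF it was higher than in iEF cells by 1.30 ± 0.39 (adjusted p = 0.0433), a call lost in 10 of 24 alternatives, among them without iEF replicate 1 or 2, Δ22 replicate 1 or DAF replicate 2 or 3 (adjusted p = 0.056 to 0.25).

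GRIK3, for GluK3, had 9, 39 and 24 counts in iLuc libraries, 9, 6 and 4 in iEF libraries, 47, 157 and 5 with WT-EF, 3, 56 and 2 with Δ22 and 18, 114 and 11 with DAF. The WT-EF and iEF libraries overlapped, since WT-EF replicate 3 was low. GRIK3 rose with WT-EF by 2.86 ± 0.77 (adjusted p = 0.0111), a call lost in 4 of 24 alternatives, among them without iEF replicate 2 or WT-EF replicate 2 (adjusted p = 0.0572 to 0.115). The fitted value moved to 3.56 without iEF replicate 1 and 1.98 without iEF replicate 2, against 2.86 with all libraries. GRIK1, for GluK1, stood between 1.24 and 3.42 CPM over all libraries and was not called against iEF in any condition.

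**Figure D3:**
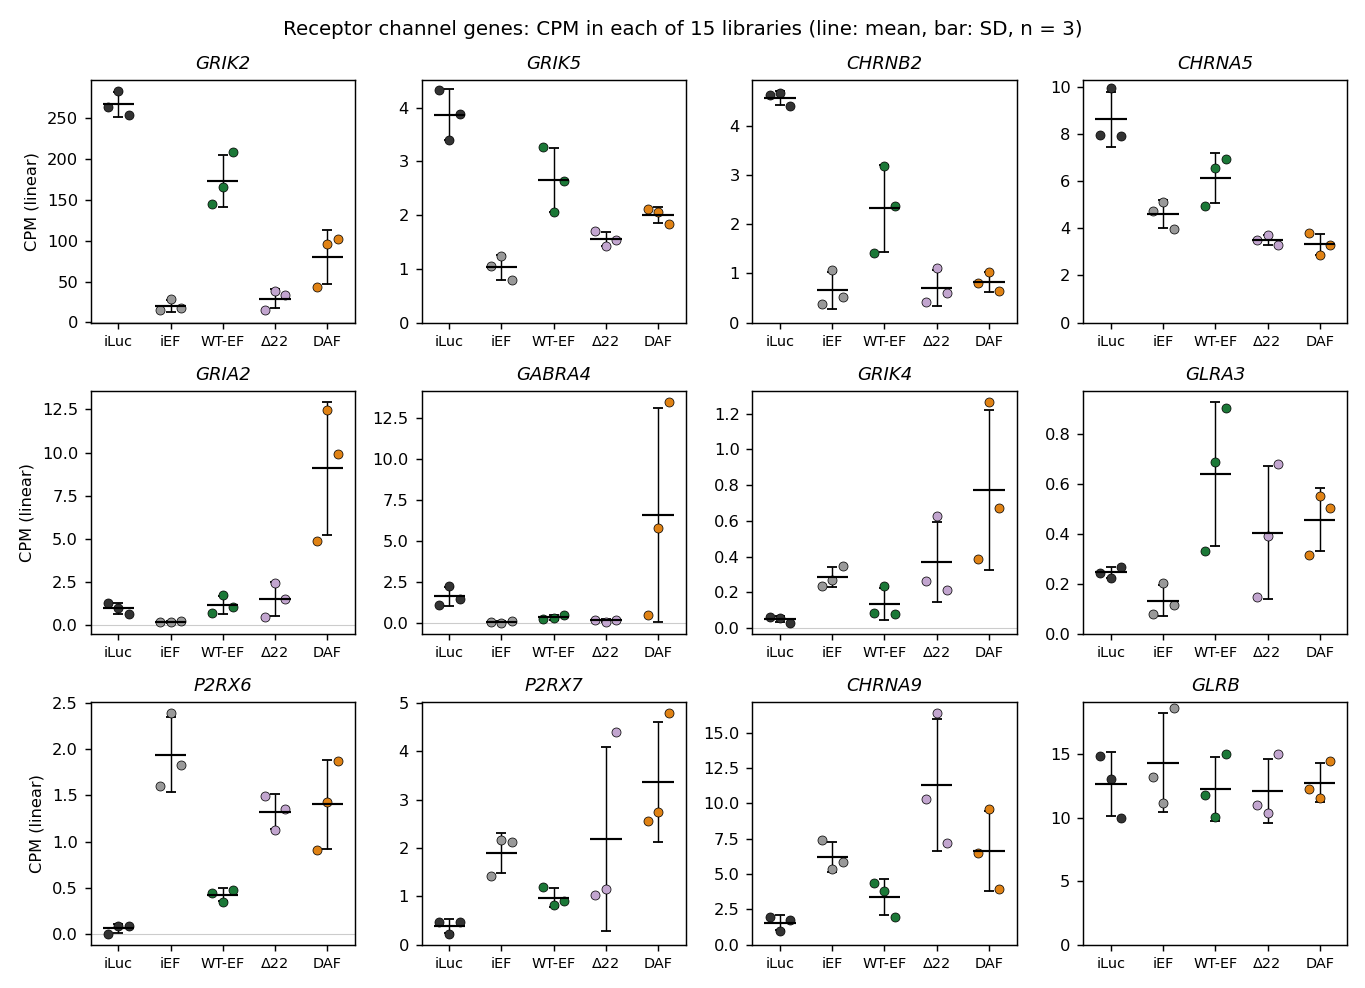
CPM of 12 receptor channel genes in each of the 15 libraries on linear axes, with a line at the mean and a bar of 1 SD (n = 3). GRIK2, GRIK5 and CHRNB2 have higher means in iLuc than in WT-EF and lower ones in iEF, GRIA2 and GABRA4 have their highest values in DAF libraries, P2RX6, P2RX7 and CHRNA9 have their lowest means in iLuc, and the 5 groups of GLRB overlap.

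Among the AMPA receptor subunits GRIA2 stood out for its level with DAF. GluA2 is known as the subunit that makes AMPA receptors impermeable to calcium once its RNA is edited. GRIA2 (ENSG00000120251, GRCh37 chr4:158125334-158308298) was at 1.28, 1.01 and 0.657 CPM in iLuc libraries, 0.184, 0.169 and 0.262 CPM in iEF libraries, 0.72, 1.74 and 1.04 CPM with WT-EF, 0.498, 2.48 and 1.54 CPM with Δ22 and 4.89, 12.5 and 9.93 CPM with DAF. The 3 DAF libraries were above every other library, and the 3 iEF libraries were below every other library. Against iEF the change was 2.27 ± 0.50 (adjusted p = 0.00192) for iLuc, 2.40 ± 0.49 (adjusted p = 0.0017) for WT-EF and 5.35 ± 0.46 (adjusted p = 1.25e-05) for DAF by edgeR's quasi-likelihood test. For iLuc against iEF the fitted value was 1.59 without iLuc replicate 1, against 2.27 with all libraries. WT-EF against DAF was -2.95 ± 0.37 (adjusted p = 4.3e-05). DAF exceeded Δ22 by 2.64 ± 0.36 (adjusted p = 0.00189), a call lost in 1 of 23 alternatives (without replicate 2 of all conditions, adjusted p = 0.0519).

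GRIA2 was also the single gene called with Δ22, higher than in iEF by 2.71 ± 0.49 (adjusted p = 0.0142). That call was lost in 6 of 23 alternatives, among them without iEF replicate 1, 2 or 3 or Δ22 replicate 2 or 3 (adjusted p = 0.0523 to 0.109). The WT-EF call against iEF was kept in all 23 alternatives.

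GRIA1, for GluA1, had 3, 1 and 7 counts in iLuc libraries, 16, 10 and 12 in iEF libraries, 3, 6 and 3 with WT-EF, 7, 10 and 4 with Δ22 and 8, 44 and 26 with DAF. Its iLuc and WT-EF libraries were below all iEF libraries. It fell by 1.78 ± 0.61 (adjusted p = 0.0299) with endo-EF, a call lost in 5 of 24 alternatives, among them without iLuc replicate 1 or 2 or iEF replicate 1 (adjusted p = 0.0677 to 0.155). Leaving out a library moved the fitted value to -1.15 without iLuc replicate 2 and -2.68 without iLuc replicate 3, against -1.78 with all libraries. With WT-EF it fell by 1.80 ± 0.60 (adjusted p = 0.0344), a call lost in 8 of 24 alternatives, among them without iEF replicate 1 or 3 or WT-EF replicate 1, 2 or 3 (adjusted p = 0.0552 to 0.152). WT-EF against DAF gave -2.78 ± 0.56 (adjusted p = 0.0017), kept in all 24 alternatives.

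GRIA4, for GluA4, fell with endo-EF from 20, 12 and 14 counts in iEF to 6, 5 and 1 in iLuc libraries by 1.94 ± 0.48 (adjusted p = 0.00425). Its libraries did not overlap, and the call was kept in all 23 alternatives. GRIA3 was called in no comparison.

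NMDA receptor subunits were low, and 2 of the 7 were called in iLuc against iEF, against 41.6% of all genes. GRIN2B, for GluN2B, had no count in the 3 iLuc libraries against 4, 4 and 5 in iEF libraries. With a floor of 3 counts over the group it was at least 4.32-fold lower in iLuc cells (adjusted p = 0.00355). The call was kept in all 23 alternatives. GRIN2A, for GluN2A, rose from 3, 2 and 11 counts in iEF to 15, 16 and 13 in iLuc libraries, without overlap in CPM, by 1.49 ± 0.55 (adjusted p = 0.0409). That call was lost in 12 of 23 alternatives, among them without iLuc replicate 1 or 2, iEF replicate 1 or 2, Δ22 replicate 3 or DAF replicate 1, 2 or 3 (adjusted p = 0.0505 to 0.176). Its fitted value was 2.45 without iEF replicate 3, against 1.49 with all libraries. No NMDA gene was called in another comparison, and GRIN1, for the subunit that every NMDA receptor contains, averaged 1.87 counts per library.

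Of the 18 GABA-A receptor genes 9 were tested. GABRA4 (ENSG00000109158, GRCh37 chr4:46920917-46995598), whose α4 subunit is known from receptors outside synapses, had 36, 79 and 49 counts in iLuc libraries, 1, 0 and 3 in iEF libraries, 7, 11 and 18 with WT-EF, 5, 2 and 5 with Δ22 and 13, 219 and 402 with DAF. In CPM its DAF libraries were at 0.457, 5.78 and 13.5 and its iLuc libraries at 1.1, 2.22 and 1.46, so the first DAF library lay below all iLuc libraries and the other two above them. Summed counts over library size were 168-fold higher with DAF than in iEF cells (95% counting interval 65.4 to 619) and 41.1-fold higher in iLuc cells (95% counting interval 15.7 to 153). The test gave an adjusted p of 0.00023 for DAF and 0.000317 for iLuc, and both calls were kept in all 23 alternatives. For DAF against iEF the fitted value was 7.57 without iEF replicate 3, 7.58 without DAF replicate 1 and 6.01 without DAF replicate 3, against 6.95 with all libraries. For iLuc against iEF the fitted value was 6.20 without iLuc replicate 3 and 6.02 without iEF replicate 3, against 5.43 with all libraries. WT-EF against iEF gave 2.94 (95% interval 0.44 to 5.45, adjusted p = 0.0739).

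GABRA4 was lower with WT-EF than with DAF, at -4.00 ± 0.66 (adjusted p = 0.000391), a call kept in all 23 alternatives. Leaving out a library moved the fitted value to -4.66 without DAF replicate 1 and -3.10 without DAF replicate 3, against -4.00 with all libraries. It was also lower with WT-EF than with endo-EF, at -2.49 ± 0.68 (adjusted p = 0.0185), a call lost in 6 of 23 alternatives, among them without iLuc replicate 1 or 2 or WT-EF replicate 2 or 3 (adjusted p = 0.0561 to 0.0928). Its fitted value was -3.14 without iLuc replicate 3, against -2.49 with all libraries. DAF exceeded Δ22 by 5.32 ± 0.77 (adjusted p = 0.00282), a call lost in 1 of 23 alternatives (without replicate 2 of all conditions, adjusted p = 0.153). The fitted value moved to 5.99 without Δ22 replicate 1, 5.99 without DAF replicate 1 and 4.45 without DAF replicate 3, against 5.32 with all libraries.

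GABRE, for the ε subunit, had 2, 0 and 2 counts in iLuc libraries, 17, 18 and 18 in iEF libraries, 15, 8 and 3 with WT-EF, 31, 37 and 25 with Δ22 and 21, 27 and 22 with DAF. All Δ22 and DAF libraries lay above those of the other conditions, and all iLuc libraries were below all iEF libraries. By summed counts GABRE in iLuc cells was 13.2-fold below iEF (95% counting interval 4.87 to 50.3, adjusted p = 0.000275), a call kept in all 24 alternatives.

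The other GABA-A calls rested on few counts. GABRB1, for β1, rose from 5, 0 and 6 counts in iEF to 14, 19 and 15 in iLuc libraries by 2.07 ± 0.62 (adjusted p = 0.0147), a call lost in 4 of 23 alternatives, among them without iLuc replicate 1 or iEF replicate 2 (adjusted p = 0.0506 to 0.0553). In the fit the value was 1.35 without iEF replicate 2, against 2.07 with all libraries. GABRR1, for ρ1, had no count in iEF libraries, 5, 29 and 5 in iLuc libraries and 4, 4 and 9 with WT-EF. Against a floor of 3 counts over the iEF group this was at least 13-fold higher in iLuc and at least 5.19-fold higher in WT-EF cells (adjusted p = 0.00195 and 0.0151). The iLuc call was kept in all 22 alternatives, and the WT-EF call was lost in 4 of 22 alternatives, among them without iEF replicate 2 (adjusted p = 0.0665). GABRA2, for α2, had 3, 16 and 16 counts with WT-EF and 1, 2 and 1 in iEF libraries, 8.01-fold higher (95% counting interval 2.86 to 31, adjusted p = 0.0314), a call lost in 7 of 23 alternatives, among them without iEF replicate 1, 2 or 3 or WT-EF replicate 2 or 3 (adjusted p = 0.0729 to 0.127). Leaving out a library moved the fitted value to 2.20 without WT-EF replicate 3, against 2.83 with all libraries.

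Of the glycine receptor genes GLRB was abundant and showed no call. Its β subunit anchors the receptor to the scaffold protein gephyrin. GLRB (ENSG00000109738, GRCh37 chr4:157997277-158093242) was at 14.9, 13 and 9.94 CPM in iLuc libraries, 13.2, 11.2 and 18.6 CPM in iEF libraries, 11.8, 10.01 and 15 CPM with WT-EF, 11, 10.4 and 15 CPM with Δ22 and 12.2, 11.6 and 14.5 CPM with DAF. The 5 groups overlapped, and GLRB was called in none of the 7 comparisons, with -0.14 (95% interval -0.53 to 0.25, adjusted p = 0.594) in iLuc against iEF. The α subunits, which bind glycine, were low. GLRA3, for α3, had 8, 8 and 9 counts in iLuc libraries, 3, 6 and 4 in iEF libraries, 12, 26 and 34 with WT-EF, 5, 15 and 19 with Δ22 and 9, 21 and 15 with DAF. WT-EF libraries were above all iEF libraries, and GLRA3 rose with WT-EF by 2.24 ± 0.43 (adjusted p = 0.00103), a call kept in all 24 alternatives. With DAF it rose by 1.80 ± 0.45 (adjusted p = 0.018), a call lost in 8 of 24 alternatives, among them without iEF replicate 1 or 3 or DAF replicate 1 or 2 (adjusted p = 0.0518 to 0.113). In iLuc against iEF it gave 0.93 (95% interval -0.11 to 1.96, adjusted p = 0.147), and WT-EF exceeded iLuc by 1.31 ± 0.39 (adjusted p = 0.0276), a call lost in 8 of 24 alternatives, among them without iLuc replicate 2 or 3 or WT-EF replicate 2 or 3 (adjusted p = 0.0729 to 0.123).

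GLRA1, for the α1 subunit, had 7, 1 and 11 counts in iEF and 2, 0 and 2 in iLuc libraries, 4.74-fold lower in iLuc cells (95% counting interval 1.58 to 19.2, adjusted p = 0.042). The call was lost in 16 of 23 alternatives, among them without iLuc replicate 1, 2 or 3, iEF replicate 1 or 3, WT-EF replicate 1, Δ22 replicate 1 or DAF replicate 1 or 3 (adjusted p = 0.0509 to 0.228).

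Nicotinic receptor genes moved in both directions. CHRNB2 (ENSG00000160716, GRCh37 chr1:154540254-154552489), whose β2 subunit pairs with α4 in the most common nicotinic receptor of the brain, was at 4.65, 4.68 and 4.42 CPM in iLuc libraries, 0.368, 1.08 and 0.524 CPM in iEF libraries, 1.41, 3.2 and 2.37 CPM with WT-EF, 0.41, 1.12 and 0.607 CPM with Δ22 and 0.808, 1.03 and 0.637 CPM with DAF. WT-EF libraries lay below all iLuc libraries and above all others, while iEF libraries overlapped Δ22 and DAF libraries. The change against iEF was 2.92 ± 0.30 (adjusted p = 1.55e-06) with endo-EF and 1.86 ± 0.30 (adjusted p = 0.000228) with WT-EF by edgeR's quasi-likelihood test, and with DAF it was 0.39 (95% interval -0.29 to 1.08, adjusted p = 0.528). WT-EF exceeded DAF by 1.46 ± 0.29 (adjusted p = 0.00152). WT-EF against iLuc was -1.06 ± 0.26 (adjusted p = 0.01), a call lost in 4 of 24 alternatives, among them without iLuc replicate 1 or WT-EF replicate 1 (adjusted p = 0.0797 to 0.0852).

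CHRNA5, for the accessory α5 subunit, was at 7.98, 9.96 and 7.94 CPM in iLuc libraries, 4.76, 5.13 and 3.96 CPM in iEF libraries, 4.96, 6.55 and 6.95 CPM with WT-EF, 3.49, 3.7 and 3.29 CPM with Δ22 and 3.8, 2.88 and 3.29 CPM with DAF. The iLuc libraries were above all others, and every Δ22 and DAF library was below every iEF library. CHRNA5 rose with endo-EF by 0.90 ± 0.17 (adjusted p = 0.000621), and WT-EF exceeded DAF by 0.89 ± 0.18 (adjusted p = 0.00155), the latter lost in 1 of 24 alternatives (without replicate 2 of all conditions, adjusted p = 0.0511). Against iEF the change was 0.42 (95% interval 0.05 to 0.79, adjusted p = 0.0873) with WT-EF and -0.47 (95% interval -0.85 to -0.09, adjusted p = 0.115) with DAF. Of its exon bases 28.4% also lie in genes on the opposite strand, and the use of strand in counting is not given in the sources used here.

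CHRNA9, for an α subunit known from hair cells of the ear, was at 1.96, 0.954 and 1.73 CPM in iLuc libraries, 7.41, 5.33 and 5.87 CPM in iEF libraries, 4.4, 3.81 and 1.97 CPM with WT-EF, 10.3, 16.4 and 7.18 CPM with Δ22 and 6.47, 9.58 and 3.92 CPM with DAF. All iLuc libraries were below all iEF libraries. It fell by 2.00 ± 0.34 (adjusted p = 0.000219) with endo-EF, kept in all 24 alternatives, and by 0.94 ± 0.32 (adjusted p = 0.0372) with WT-EF. The WT-EF call was lost in 9 of 24 alternatives, among them without iLuc replicate 1, iEF replicate 1 or 3 or WT-EF replicate 2 or 3 (adjusted p = 0.0514 to 0.15). With Δ22 the change was 0.80 (95% interval 0.14 to 1.46, adjusted p = 0.248).

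CHRNB4, for the β4 subunit, had 1, 1 and 0 counts in iLuc libraries, 15, 12 and 10 in iEF libraries, 4, 0 and 2 with WT-EF, 11, 9 and 23 with Δ22 and 6, 1 and 4 with DAF. All iEF libraries were above all iLuc and WT-EF libraries. By summed counts the iLuc level was 18.5-fold below that of iEF (95% counting interval 4.76 to 158, adjusted p = 0.00221), a call kept in all 23 alternatives. Its fitted value was -4.61 without iLuc replicate 2 and -3.36 without iLuc replicate 3, against -4.00 with all libraries. With WT-EF it was 6.74-fold lower (95% counting interval 2.82 to 19.5, adjusted p = 0.0114), a call lost in 1 of 23 alternatives (without replicate 2 of all conditions, adjusted p = 0.101). The fitted value moved to -3.60 without WT-EF replicate 1, against -2.74 with all libraries.

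CHRNA4 and CHRNA7, for neuronal α subunits, were low. CHRNA4 had 0, 1 and 2 counts in iEF libraries, 1, 14 and 43 with WT-EF and 3, 7 and 36 with DAF, and in both rescues replicate 3 held most of the counts. Summed counts were 17.7-fold higher with WT-EF (95% counting interval 5.76 to 88.3, adjusted p = 0.00534), a call lost in 3 of 23 alternatives, among them without iEF replicate 3 (adjusted p = 0.0711). With DAF they were 16.3-fold higher (95% counting interval 5.23 to 81.8, adjusted p = 0.0177), a call lost in 5 of 23 alternatives, among them without iEF replicate 3 or DAF replicate 3 (adjusted p = 0.159 to 0.191). In the fit the value was 2.93 without DAF replicate 3, against 3.74 with all libraries. CHRNA7 rose from 4, 5 and 1 counts in iEF to 10, 20 and 18 in iLuc libraries by 2.18 ± 0.61 (adjusted p = 0.00918), a call lost in 2 of 23 alternatives, among them without iEF replicate 3 (adjusted p = 0.0619). CHRNA7 has a near-identical partial copy, CHRFAM7A, so its counts are uncertain.

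The muscle receptor is built from CHRNA1, CHRNB1, CHRND and CHRNE or, in the fetus, CHRNG. CHRNB1 stood between 3.93 and 6.87 CPM in all libraries and was higher with DAF than in iEF cells by 0.55 ± 0.17 (adjusted p = 0.0478), a call lost in 12 of 24 alternatives, among them without iEF replicate 1 or 3, WT-EF replicate 2, Δ22 replicate 2 or DAF replicate 1, 2 or 3 (adjusted p = 0.0509 to 0.215). CHRNG rose from 15, 19 and 10 counts in iEF to 52, 32 and 34 in iLuc libraries, by 1.46 ± 0.37 (adjusted p = 0.00496), a call lost in 1 of 24 alternatives (without replicate 1 of all conditions, adjusted p = 0.122). With WT-EF it had 51, 45 and 23 counts and rose by 1.27 ± 0.37 (adjusted p = 0.0165), a call lost in 4 of 24 alternatives, among them without iEF replicate 1 or WT-EF replicate 1 (adjusted p = 0.0631 to 0.101). Of its exon bases 66.9% overlap TIGD1 on the opposite strand, so its counts are uncertain if strand was not used. CHRNA1 had no count in iLuc libraries and 1, 8 and 4 in iEF libraries, at least 4.32-fold lower against the floor of 3 counts (adjusted p = 0.0122), a call lost in 2 of 23 alternatives (without replicate 2 of all conditions, adjusted p = 0.101 and without replicate 3 of all conditions, adjusted p = 0.0531). Leaving out a library moved the fitted value to -3.99 without iEF replicate 2 and -5.81 without iEF replicate 3, against -5.22 with all libraries. CHRND and CHRNE were called in no comparison. The 5 skeletal muscle markers summed to 3.91 to 4.54 CPM in iLuc, 4.07 to 5.12 CPM in iEF, 4.84 to 5.43 CPM in WT-EF, 4.81 to 5.11 CPM in Δ22 and 4.18 to 5.75 CPM in DAF libraries, and 2 of them were under 0.1 CPM in every library. Of the 5 5-HT3 receptor genes HTR3B alone was tested, at an average of 2.93 counts, and it was called in no comparison.

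Of the P2X receptors for ATP, P2RX6 and P2RX7 fell and P2RX2 rose with endo-EF. P2RX6 (ENSG00000099957, GRCh37 chr22:21364097-21382302), for a subunit that works poorly as a channel on its own, was at 0, 0.0842 and 0.0896 CPM in iLuc libraries, 1.6, 2.39 and 1.83 CPM in iEF libraries, 0.443, 0.344 and 0.479 CPM with WT-EF, 1.49, 1.12 and 1.36 CPM with Δ22 and 0.914, 1.42 and 1.88 CPM with DAF. The iLuc libraries lay below all WT-EF libraries, and these below all libraries of the other conditions. Summed counts in iLuc were 32.4-fold below those in iEF (95% counting interval 14.6 to 89.4). The fitted change against iEF was -4.97 ± 0.47 (adjusted p = 8.01e-07) for iLuc and -2.19 ± 0.34 (adjusted p = 0.000194) for WT-EF by edgeR's quasi-likelihood test. WT-EF exceeded iLuc by 2.78 ± 0.55 (adjusted p = 0.00246) and was at -1.71 ± 0.35 (adjusted p = 0.00188) against DAF. All 4 calls were kept in every alternative. DAF against iEF gave -0.48 (95% interval -1.14 to 0.18, adjusted p = 0.392).

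P2RX7, whose channel is known from inflammasome activation in immune cells, was at 0.458, 0.224 and 0.478 CPM in iLuc libraries, 1.42, 2.16 and 2.12 CPM in iEF libraries, 1.19, 0.819 and 0.905 CPM with WT-EF, 1.03, 1.15 and 4.4 CPM with Δ22 and 2.57, 2.74 and 4.8 CPM with DAF. The iLuc libraries were below all others, and DAF libraries were above all iLuc, iEF and WT-EF libraries. P2RX7 fell by 2.32 ± 0.44 (adjusted p = 0.00056) with endo-EF, and WT-EF against DAF was -1.71 ± 0.38 (adjusted p = 0.00361). WT-EF against iEF was -0.94 (95% interval -1.78 to -0.10, adjusted p = 0.0884). WT-EF exceeded iLuc by 1.39 ± 0.46 (adjusted p = 0.0459), a call lost in 10 of 24 alternatives, among them without iLuc replicate 2 or 3, iEF replicate 1, WT-EF replicate 1 or 2 or DAF replicate 1 or 3 (adjusted p = 0.0577 to 0.197). The 4 leukocyte markers, 1 of them under 0.1 CPM throughout, summed to 0.397 to 1.01 CPM in iLuc, 1.58 to 2.12 CPM in iEF, 0.555 to 0.932 CPM in WT-EF, 0.879 to 3.29 CPM in Δ22 and 1.79 to 4.69 CPM in DAF libraries, and their part in the level of P2RX7 was not tested.

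P2RX4, the neighbour of P2RX7 on chromosome 12, was at 11.6, 9.87 and 8.75 CPM in iLuc libraries, 14.4, 14.4 and 16.6 CPM in iEF libraries, 16.8, 11 and 14.9 CPM with WT-EF, 14.8, 16.5 and 27.4 CPM with Δ22 and 15.4, 22 and 30.6 CPM with DAF. The iLuc libraries were below all iEF, Δ22 and DAF libraries and overlapped those of WT-EF, and the change against iEF was -0.57 (95% interval -1.05 to -0.09, adjusted p = 0.0567). P2RX5 had 15, 9 and 12 counts in iLuc libraries, 15, 8 and 16 in iEF libraries, 3, 6 and 5 with WT-EF, 20, 24 and 10 with Δ22 and 15, 10 and 16 with DAF. It was lowest with WT-EF, at -1.54 ± 0.46 (adjusted p = 0.0189) against iEF, -1.75 ± 0.45 (adjusted p = 0.00915) against DAF and -1.45 ± 0.46 (adjusted p = 0.0383) against iLuc. The call against iEF was lost in 5 of 24 alternatives, among them without iEF replicate 3 or WT-EF replicate 1 or 3 (adjusted p = 0.0584 to 0.0998). The call against DAF was lost in 4 of 24 alternatives, among them without WT-EF replicate 1 or DAF replicate 3 (adjusted p = 0.0503 to 0.0505). The call against iLuc was lost in 12 of 24 alternatives, among them without iLuc replicate 1, 2 or 3, iEF replicate 1, WT-EF replicate 1 or 3, Δ22 replicate 1 or DAF replicate 1 (adjusted p = 0.0506 to 0.207). Of the exon bases of P2RX5 43.2% are shared with the readthrough gene P2RX5-TAX1BP3, so its counts are uncertain. P2RX2 rose from 4, 4 and 3 counts in iEF to 19, 14 and 12 in iLuc libraries by 2.00 ± 0.65 (adjusted p = 0.0229), a call lost in 6 of 23 alternatives, among them without iLuc replicate 1 or 2 or iEF replicate 1 or 3 (adjusted p = 0.0609 to 0.11).

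How far each construct restored the level seen with endo-EF was expressed as a share of the difference between iEF and iLuc in CPM, within each replicate number, for the 8 genes called in iLuc against iEF that averaged at least 50 counts per library. For GRIK2, WT-EF restored 62.3 ± 16.2% (SD, n = 3), DAF 24.3 ± 12.6% and Δ22 3.51 ± 3.38%. For GRIK5 the shares were 55 ± 15.3%, 34.7 ± 2.82% and 17.6 ± 8.02%. For CHRNB2 they were 43.5 ± 17.5%, 3.94 ± 5.91% and 1.44 ± 0.628%. These 3 genes were restored most by WT-EF on average, and least by Δ22. For GABRA4 the share with WT-EF was 19.1 ± 8.26% and with Δ22 6.73 ± 4.42%, whereas DAF gave 40.1%, 261% and 974% in replicates 1, 2 and 3. For GRIA2, DAF passed the level of endo-EF in each replicate number, at 427%, 1460% and 2447% of the difference. WT-EF gave 48.7%, 187% and 197% and Δ22 28.6%, 274% and 323%, so that both passed that level in 2 of the 3 replicate numbers. For CHRNA5, WT-EF restored 37 ± 35%, while DAF at -31.1 ± 14.9% and Δ22 at -28.5 ± 11.3% lay on the other side of iEF in each replicate number. For P2RX7, which is lower with endo-EF, WT-EF restored 55.7 ± 27.7%. DAF moved P2RX7 away from endo-EF in each replicate number, at -104 ± 67.4%, and Δ22 gave 40.9%, 52.3% and -138%. For CHRNA9, also lower with endo-EF, WT-EF restored 61.4 ± 30.2%. DAF gave 17.3%, -97.1% and 47.1% for CHRNA9, and Δ22 was beyond iEF in each replicate number at -112 ± 122%. The iEF and iLuc libraries enter the shares of all 3 constructs, which are therefore not independent.

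WT-EF and iLuc, both with a full-length EWS/FLI, were compared directly. FLI1 itself was called lower with WT-EF than in iLuc cells, and the part of this in the receptor results was not tested. Since endogenous and cDNA transcripts are not separated, that call does not give the level of the WT-EF construct. Calls were made for 8 of the 52 genes, against 19.7% of all genes. There were 5 genes higher with WT-EF, against 10.7% of all genes, and 3 lower, against 9.03%. CHRNA9, GABRE, GLRA3, P2RX6 and P2RX7 were higher, and CHRNB2, GABRA4 and P2RX5 lower. P2RX6 was the single call kept in every alternative. CHRNA9 was higher by 1.06 ± 0.34 (adjusted p = 0.0424), lost in 9 of 24 alternatives, among them without iLuc replicate 1 or 2, iEF replicate 1, WT-EF replicate 1 or 2 or DAF replicate 1 (adjusted p = 0.0508 to 0.183). GABRE was higher by 2.44 ± 0.70 (adjusted p = 0.024), lost in 6 of 24 alternatives, among them without iLuc replicate 1 or 2 or WT-EF replicate 1 or 2 (adjusted p = 0.0532 to 0.14). Its fitted value was 1.81 without WT-EF replicate 1, against 2.44 with all libraries. Except for GLRA3 and P2RX5, the mean CPM of these genes with WT-EF lay between those of iEF and iLuc.

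WT-EF and DAF differ by design in part of the tyrosines of the EWS domain, those of its amino-terminal repeats. FLI1 itself was lower with WT-EF, at 16, 18 and 18.7 CPM against 22.1, 23.6 and 27.3 CPM with DAF, and fell by 0.47 ± 0.10 (adjusted p = 0.00264), and the part of this in the receptor results was not tested. Calls were made for 15 of the 52 genes, against 28.5% of all genes. There were 4 genes higher with WT-EF, against 12.4% of all genes, and 11 lower, against 16.1%. CHRNA5, CHRNB2, GRIK1 and GRIK2 were higher. CHRNA9, CHRNB1, GABRA4, GABRE, GRIA1, GRIA2, GRIK4, P2RX4, P2RX5, P2RX6 and P2RX7 were lower. The calls of CHRNB2, GABRA4, GRIA1, GRIA2, GRIK2, GRIK4, P2RX6 and P2RX7 were kept in every alternative. GRIK4 was lower with WT-EF, at -2.50 ± 0.43 (adjusted p = 0.000491).

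The other calls between WT-EF and DAF were weaker. GRIK1 was higher with WT-EF by 0.61 ± 0.22 (adjusted p = 0.0498), lost in 17 of 24 alternatives, among them without iLuc replicate 1, iEF replicate 1 or 3, WT-EF replicate 1, 2 or 3, Δ22 replicate 1, 2 or 3 or DAF replicate 1, 2 or 3 (adjusted p = 0.0567 to 0.206). CHRNB1 was at -0.56 ± 0.17 (adjusted p = 0.0192), lost in 6 of 24 alternatives, among them without WT-EF replicate 2 or DAF replicate 3 (adjusted p = 0.0632 to 0.108). P2RX4 was at -0.65 ± 0.22 (adjusted p = 0.0418), lost in 9 of 24 alternatives, among them without iEF replicate 1, WT-EF replicate 2 or 3 or DAF replicate 2 or 3 (adjusted p = 0.0568 to 0.211). CHRNA9 was at -0.97 ± 0.32 (adjusted p = 0.0322), lost in 6 of 24 alternatives, among them without WT-EF replicate 2 or 3 or DAF replicate 2 (adjusted p = 0.0927 to 0.207). GABRE was at -1.65 ± 0.44 (adjusted p = 0.0113), lost in 3 of 24 alternatives, among them without WT-EF replicate 3 (adjusted p = 0.0539). The fitted value moved to -2.31 without WT-EF replicate 1, against -1.65 with all libraries.

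**Figure D4:**
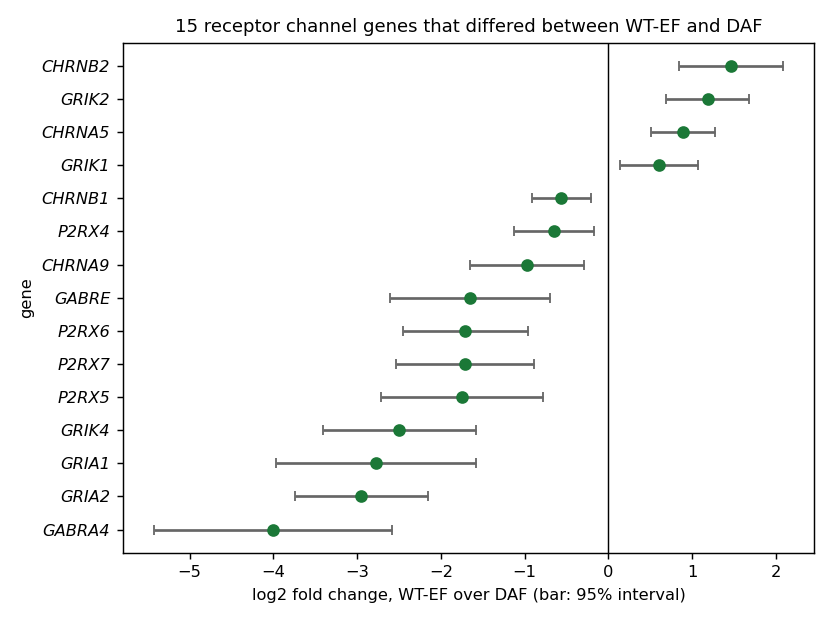
Log2 fold change of WT-EF over DAF for the 15 receptor channel genes called in that comparison, with bars of the 95% interval. CHRNB2, GRIK2, CHRNA5 and GRIK1 are positive and the other 11 genes are negative, with GABRA4 the farthest from 0.

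DAF was also compared with Δ22, which lacks the EWS domain altogether. GABRA4, GRIA2 and GRIK2 were higher with DAF, 3 genes against 0.948% of all genes, and 0 were lower, against 0.379% (1.33% in either direction). For the lower genes, an unadjusted p under 0.05 was found for 2 genes by edgeR and 2 by DESeq2, with 0 after adjustment by DESeq2. All 3 calls were lost without replicate 2 of all conditions.

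Calls of some neighbouring members are set side by side, without a count over all clusters. Of the 69 genes, 34 lie in 13 clusters of neighbours less than 1 Mb apart. In the chromosome 4 cluster of GABRG1, GABRA2, GABRA4 and GABRB1, GABRA4 alone was called with DAF against iEF, and GABRA4 and GABRB1 with endo-EF. GABRG1, GABRA2 and GABRB1 averaged only 1.4, 5.67 and 8.13 counts per library. With DAF against iEF, GABRA2 gave 1.95 (95% interval -0.23 to 4.14) and GABRB1 1.02 (95% interval -0.45 to 2.49). A missing call at such counts does not show that a gene differed from GABRA4. GRIA2 and GLRB are also neighbours on chromosome 4, and GLRB was called in no comparison. In the chromosome 15 cluster CHRNA5 rose and CHRNB4 fell with endo-EF, while CHRNA3, named after its values were seen, was at -0.66 (95% interval -1.34 to 0.03, adjusted p = 0.117). P2RX7 and P2RX4 on chromosome 12 were both lower with WT-EF than with DAF.

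Besides GLRB, 19 tested genes were called in no comparison, and they averaged between 1.13 and 43.7 counts per library. They included CHRNA3, CHRNA6, CHRNA10, CHRND, CHRNE, GABRD, GABRG1, GABRR2, GLRA2, GRIA3, GRID1, GRIN1, GRIN2C, GRIN2D, GRIN3A, GRIN3B, HTR3B and P2RX1. Of the exon bases of CHRNE 59.6% overlap other genes on the opposite strand. For P2RX1, named after its values were seen, at an average of 9.67 counts, iLuc against iEF gave 1.32 (95% interval -0.14 to 2.78, adjusted p = 0.141). Its counts were 11, 10 and 32 in iLuc and 2, 5 and 14 in iEF libraries, so that the replicates of each condition spread widely and the groups overlapped.

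Proteins that act with these receptors were read from lists of companion genes. Of 50 scaffold and auxiliary subunit genes 43 were tested. In iLuc against iEF 18 rose (19.5% of all genes) and 10 fell (22.1%), with a median log2 fold change of 0.21. WT-EF against iEF gave 16 higher (12.9% of all genes) and 9 lower (17.0%). Δ22 gave 1 higher (0.472%) and 4 lower (0.830%), and DAF gave 6 higher (5.00%) and 7 lower (6.19%). DLG2, for the postsynaptic scaffold PSD-93, was at 371 ± 5.6 CPM in iLuc, 21.6 ± 10.9 CPM in iEF, 467 ± 93 CPM in WT-EF, 37 ± 17.8 CPM in Δ22 and 137 ± 29.9 CPM in DAF cells, and rose by 4.19 ± 0.29 (adjusted p = 4.2e-08) with endo-EF. SHANK1, for another postsynaptic scaffold, rose by 5.19 ± 0.24 (adjusted p = 1.38e-09). LYPD6B, for a protein that acts on nicotinic receptors, fell by 6.79 ± 0.53 (adjusted p = 1.19e-07), and NPTX1, for a pentraxin that gathers AMPA receptors, fell by 5.46 ± 0.46 (adjusted p = 2.39e-07). NETO1 and NETO2, for the auxiliary subunits of kainate receptors, were named after their values were seen. NETO1 rose by 2.67 ± 0.24 (adjusted p = 4.29e-07) and NETO2 fell by 0.56 ± 0.10 (adjusted p = 0.000455).

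Of 38 genes for synthesis, breakdown and transport of the transmitters 32 were tested. In iLuc against iEF 8 rose (19.5% of all genes) and 8 fell (22.1%), with a median of 0.01. NT5E, whose ectoenzyme makes adenosine from AMP, was at 3352 ± 581 CPM in iEF and 37.8 ± 13 CPM in iLuc cells and fell by 6.52 ± 0.35 (adjusted p = 4.61e-09). GAD1, which makes GABA, fell by 3.47 ± 0.60 (adjusted p = 0.000244), and ABAT, which degrades it, rose by 2.16 ± 0.29 (adjusted p = 2.69e-05). BCHE, for butyrylcholinesterase, rose by 1.75 ± 0.20 (adjusted p = 4.91e-06). Of 39 genes for metabotropic receptors of the same transmitters 38 were matched and 28 tested. Of these 8 rose (19.5% of all genes) and 9 fell (22.1%), with a median of -0.15. HTR7 and ADORA1, for a serotonin and an adenosine receptor, fell by 7.87 ± 0.82 (adjusted p = 2.11e-06) and 6.72 ± 0.42 (adjusted p = 1.69e-08). P2RY1 and HTR1F, for an ADP and a serotonin receptor, rose by 2.05 ± 0.21 (adjusted p = 1.5e-06) and 1.17 ± 0.20 (adjusted p = 0.000265).

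The direction of GABA-A and glycine currents depends on the chloride gradient. Of 8 chloride transporter and channel genes listed for it, not all of which set that gradient, 3 rose (19.5% of all genes) and 3 fell (22.1%). Their median was -0.07. SLC12A4, for a potassium-chloride cotransporter, fell by 1.10 ± 0.10 (adjusted p = 5.11e-07), and CLCN3, for a chloride/proton exchanger, rose by 0.69 ± 0.08 (adjusted p = 7.33e-06).

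Neuronal markers moved in both directions. The summed level of 6 of them was 216 to 241 CPM in iLuc, 128 to 138 CPM in iEF, 217 to 251 CPM in WT-EF, 156 to 187 CPM in Δ22 and 207 to 307 CPM in DAF libraries, and none of the 6 was under 0.1 CPM in all libraries. In iLuc against iEF 3 of the 6 rose, SYT1, SNAP25 and ELAVL4, and 2 fell, STMN2 and TUBB3. Of all genes 19.5% rose and 22.1% fell. In these bulk samples a change in the number of cells of a kind and a change in RNA per cell cannot be told apart, and the part of the markers in the receptor results was not tested.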

How the data were processed

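RNA was sequenced as paired-end reads, which the authors aligned to hg19 with STAR (2.5.1b per the submitters' processing notes) and counted per Ensembl gene with htseq-count in intersection-strict mode. The deposited counts are whole reads per gene, without normalization. A second deposited table holds a count-scale signal, which the authors made with ComBat on each set of replicates, and it served for an alternative only. The authors' own comparisons (fold changes and adjusted p-values) and the 3 columns that match no sample were not used. Members, companion lists and tests were chosen with earlier results of these data known. Gene names, exons and overlaps came from GENCODE annotation of GRCh37.

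Library sizes were scaled by TMM, and genes with an average of at least 1 count per library (28793 of 57820) were tested with edgeR 4.0.16 in R 4.3.3 by the quasi-likelihood test, in 1 fit over the 15 libraries, with terms for condition and for replicate number. The latter was a block because the study adjusted each set of replicates. Deviations from the group means correlated at a median r of 0.174 between libraries with the same number (30 pairs, -0.195 to 0.804) and -0.0846 with different numbers (60 pairs), over 13178 genes. P-values were adjusted over all tested genes by Benjamini-Hochberg. The SE is the absolute log2 fold change over the square root of the F statistic of the test. The 95% intervals of fold changes were built from that SE, so both are approximate, above all at low counts. CPM is counts over the effective library size, and levels between genes were compared per kb of union exon. Totals of 28659475 to 41859880 counts (median 32943231) set the precision. Ratios of summed counts have exact 95% intervals, and a group at 0 was set to a floor of 3 counts.

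Named genes were all members called in at least 1 comparison, members not called with an average of at least 100 counts, members under the filter, and, from each companion list, up to 2 genes with the largest rise and 2 with the largest fall among those called in iLuc against iEF with an average of at least 50 counts. A few of these genes are not reported here. Alternatives used DESeq2 1.42.0, its size factors, other filters, no block, ComBat-adjusted values on the log2 scale in limma 3.58.1 (1 added), or left out libraries. The fit was tested on simulated counts.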

Additional observations from a re-analysis of the deposited data

How the results depend on the processing

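Of the 74 calls of single receptor channel genes, 33 were kept in all of up to 24 alternatives, 41 were lost in at least 1, and 0 changed direction. Without the replicate block, which stands for the pairing of libraries by number, the genes higher with DAF than in iEF went from 8 to 4, and WT-EF against iLuc went from 5 to 2 higher and from 3 to 1 lower. With an average of at least 10 counts, the genes lower in iLuc than in iEF went from 12 to 7, since fewer genes were tested. Without a filter, Δ22 against iEF had 3 higher, WT-EF against iLuc 5 lower, and DAF against Δ22 6 higher and 1 lower. DESeq2 gave 5 lower in WT-EF against iLuc. ComBat-adjusted values gave 8 higher and 6 lower in WT-EF against iLuc, 7 higher in WT-EF against DAF and 1 higher in DAF against Δ22. Leaving out libraries, counts of higher and lower genes ran from 8 to 14 and 8 to 13 for iLuc against iEF, 7 to 12 and 2 to 6 for WT-EF against iEF, 1 to 6 and 0 to 4 for WT-EF against iLuc, and 2 to 5 and 7 to 11 for WT-EF against DAF. Genes higher ran from 0 to 1 for Δ22 and from 4 to 9 for DAF against iEF and from 0 to 4 for DAF against Δ22, and metabotropic receptor genes higher in iLuc from 5 to 8. Single libraries that moved a count by more than 1.5 times were iEF replicates 1 and 3 and WT-EF replicates 2 and 3 (WT-EF against iEF, lower, 3, 2, 3 and 2), iEF replicates 1, 2 and 3 and Δ22 replicates 2 and 3 (Δ22, 0 each), iEF replicates 1 and 3 and DAF replicates 2 and 3 (DAF against iEF, 5, 4, 4 and 5), iLuc replicate 2, iEF replicate 1, WT-EF replicates 1 and 2 and DAF replicate 1 (WT-EF against iLuc, higher, 1, 3, 2, 1 and 3), and iLuc replicates 1 and 2 and WT-EF replicate 1 (the same, lower, 0, 1 and 1). Other causes of these differences were not tested. At averages under 10 counts, as for 27 of the 52 genes, only large changes could be called.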
